A study of Mus musculus with 24 samples.

Results

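The response of the mouse cerebral cortex to lipopolysaccharide (LPS, the endotoxin of Gram-negative bacteria) was measured in control animals. All libraries with the genotype label control were used, 12 of the 24 libraries of the series: 6 from mice labelled LPS, aged 54 to 56 days, and 6 from mice with no stimulus, aged 55 to 57 days. The other 12 libraries carry the genotype label Abca7, described in the series as heterozygous for the lipid transporter gene Abca7. They entered the scaling of library totals, the estimate of spread, the alternative models and a comparison at the end. Total RNA of cortical tissue was sequenced, 1 library per animal, after injection of LPS. Its dose, its route and the interval before tissue was taken were not given in the sources used here. Genes were kept when at least 6 of the 12 control libraries held 10 or more raw counts, which 21266 of the 43346 genes in the deposited table did.

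LPS binds CD14 and the receptor TLR4 with its partner MD-2, and the signal then takes a pair of routes. One, through MYD88, releases NF-kB, a group of transcription factors held in the cytoplasm by inhibitor proteins, and cytokine and chemokine genes are then transcribed. The other, through TRIF, activates IRF3 and leads to secretion of type I interferon, which acts on the same and neighbouring cells through the kinases JAK1 and TYK2 and their transcription factors. LPS given outside the brain is known to act on it largely through endothelium, perivascular cells and circulating cytokines, with microglia and astrocytes responding in turn. In RNA of whole tissue, fewer cells of a type and less RNA per cell cannot be told apart.

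The sequences upstream of 7 of the genes that rose are shown first because they carry the recognition letters of the 2 pathways. They are from the RefSeq promoter table (GRCm38.p6), each 120 bases long, 5′ to 3′ on the gene's own strand. Capitals mark matches, on either strand, to the interferon-stimulated response element (ISRE, searched as GAAANNGAA) or to the NF-kB site (kB, searched as GGNNTTTCC). The windows are Ifit1 at chr19:34640769-34640888 (plus strand), Isg15 at chr4:156200819-156200938 (minus strand), Rsad2 at chr12:26456453-26456572 (minus strand), Cxcl10 at chr5:92348993-92349112 (minus strand), Cxcl1 at chr5:90891125-90891244 (plus strand), Icam1 at chr9:21015777-21015896 (plus strand) and Nfkbia at chr12:55492716-55492835 (minus strand). Ifit1, Isg15 and Rsad2 encode antiviral proteins, Cxcl10 and Cxcl1 chemokines, Icam1 an adhesion protein of activated endothelium, and Nfkbia the inhibitor that recaptures NF-kB.
Ifit1: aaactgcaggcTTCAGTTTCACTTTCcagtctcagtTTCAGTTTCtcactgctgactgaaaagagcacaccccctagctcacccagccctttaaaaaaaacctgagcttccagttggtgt
Isg15: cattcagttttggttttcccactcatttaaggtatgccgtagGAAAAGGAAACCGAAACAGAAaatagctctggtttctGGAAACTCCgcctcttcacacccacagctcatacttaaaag
Rsad2: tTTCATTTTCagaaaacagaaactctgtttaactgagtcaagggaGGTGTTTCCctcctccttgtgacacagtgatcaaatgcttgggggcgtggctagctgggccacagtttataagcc
Cxcl10: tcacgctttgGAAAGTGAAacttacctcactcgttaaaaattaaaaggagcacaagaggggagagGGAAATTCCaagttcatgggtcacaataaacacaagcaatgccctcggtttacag
Cxcl1: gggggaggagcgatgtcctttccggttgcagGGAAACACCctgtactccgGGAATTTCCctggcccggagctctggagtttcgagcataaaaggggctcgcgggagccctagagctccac
Icam1: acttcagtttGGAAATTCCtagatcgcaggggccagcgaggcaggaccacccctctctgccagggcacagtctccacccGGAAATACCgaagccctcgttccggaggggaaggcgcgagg
Nfkbia: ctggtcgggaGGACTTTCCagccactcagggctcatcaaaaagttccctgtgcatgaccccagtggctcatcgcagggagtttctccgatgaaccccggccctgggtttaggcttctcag
The Ifit1 window holds 3 ISRE matches and 0 kB matches, and the Isg15 window 3 ISRE and 1 kB. The ISRE matches overlap in sequence in Isg15, while in Ifit1 the first 2 overlap and the third stands apart. The Rsad2 window and the Cxcl10 window each hold 1 ISRE and 1 kB match. In the Cxcl1, Icam1 and Nfkbia windows there are 2, 2 and 1 kB matches and no ISRE match.

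The shares of promoters with these letters differed with the size of the change. Of the 21266 tested genes, 12920 had at least 1 of the 16402 RefSeq promoters searched, over the 250 bases before the start. ISRE letters were found in 31.5% of the 127 promoters of genes that rose 8-fold or more, in 11.8% for rises of 2 to 4-fold, in 6.34% for rises under 2-fold and in 5.79% of promoters of genes that did not pass the test. The kB letters were likewise most frequent for the largest rises, with 22%, 8.3%, 4.3% and 5.13% in the same 4 groups, against 4.93% of all 32851 promoters in the RefSeq table, where ISRE letters were in 7.13%. Either motif was present in 46.5% of promoters in the group with 8-fold rises and both in 7.09%, against 11% and 0.293% of promoters of all tested genes. In 9 promoters an ISRE and a kB match shared bases, none of them in the group with 8-fold rises. The shares also differed between gene groups. Among members of the interferon-effector lists that rose, 41.3% of 75 promoters held ISRE letters and 10.7% kB letters, and among members of the chemokine, cytokine and NF-kB lists that rose the shares were 10.7% and 28.6% of 56. For genes that fell 2-fold or more they were 6.36% and 4.55%. The 127 promoters belong to 110 genes, so some genes count through several promoters, and members of a gene family count separately. Promoters are therefore not independent units here. A match is a run of letters and not a measured binding site.

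**Figure D1:**
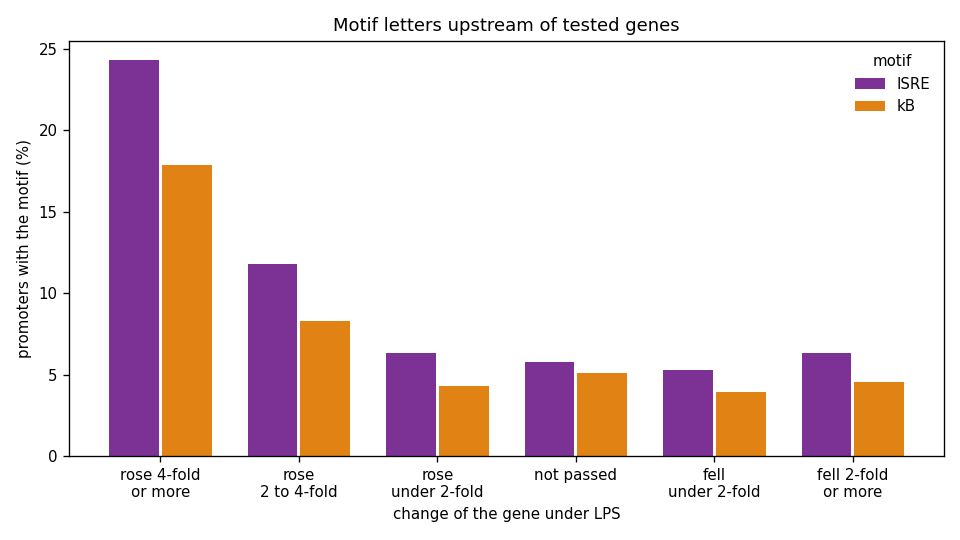
Share of RefSeq promoters (percent, vertical axis, from 0) that hold ISRE or kB letters in the 250 bases before the start, for 6 groups of tested genes ordered by their change under LPS. Both shares are highest for genes that rose 4-fold or more (24.3% and 17.9%) and lie between 3.94% and 6.36% in the 4 groups of genes that rose under 2-fold, did not pass or fell.

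3751 genes passed an adjusted p of 0.05 in the edgeR quasi-likelihood test (17.6% of those tested). Of these, 2024 rose (9.52%) and 1727 fell (8.12%), which are the shares to set beside the counts of each list below. The rises were larger than the falls: the median log2 fold change was 0.48 among genes that rose and -0.27 among genes that fell, beside 0.005 over all tested genes. A change of 8-fold or more was reached by 170 rising and 3 falling genes, and a change of 32-fold or more by 59 and 0. Most large rises began from low levels. Of the 299 genes that rose 4-fold or more, 208 (69.6%) averaged under 1 CPM (counts per 1000000 counts) without LPS, as did 22.3% of all tested genes. A set of 74 genes passed the filter with no unstimulated library at 10 counts, so their rise was built into the filter. Genes of this set named below include Ccl2, Clec4e, Il12b, Il1rn, Il6, Irg1, Mmp3, Selp and Tnf. Further genes passed only with the help of LPS libraries, because not every unstimulated library held 10 counts. Among those named below are Casp4, Csf3, Cxcl1, Mlkl and S100a8. For all these genes fold changes, p values and group separation describe the size of the rise and are no separate support for it. All 6 LPS libraries lay above all 6 unstimulated ones for 1150 genes (5.41% of those tested) and below them for 800 (3.76%).

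Total counts per library ran from 50687017 to 74948653 and did not differ between the groups beyond their spread (exact permutation p = 0.617, 0.714 adjusted over the 22 single values compared, n = 6 per group). Slc17a7, the vesicular glutamate transporter of cortical neurons, read 829, 968 and 1001 CPM without LPS and 762, 837 and 1119.6 CPM with it as lowest, median and highest of each 6, so it was abundant in every library. Markers of other regions varied between libraries. Ttr, the thyroxine carrier made by choroid plexus, read 4.93, 12.8 and 261 CPM without LPS and 165, 250.4 and 485 CPM with it, and the highest unstimulated value belongs to replicate 1, which stood apart from the other 5. The summed CPM of the choroid plexus list without Ttr ran from 227 to 421 without LPS and from 326 to 587 with it, that of thalamus markers from 209 to 442 and from 271 to 520, and that of cortex markers from 2370 to 2840 and from 2240 to 2900. Over the 22 values the adjusted exact permutation p was 0.0475 for choroid plexus, 0.139 for thalamus and 0.177 for cortex. The marker lists were chosen with earlier results of these data known, so p values of their sums, here and below, are no independent support. In a model with the Ttr level the count of genes past the threshold was 1629, with 4 surrogate variables (axes of variation estimated from the counts themselves) it was 1888, and without unstimulated replicate 1 it was 4165. Counts under these models are given beside a list of genes below where the main count is above 3 and they differ from it by more than 1.5 times. Of the 155 genes named here that passed, 17 did not pass in one or both of these models: Cd74, Cd80, Csf3r, Cx3cl1, Dlec1, Homer1, Il34, Npas4, Ptprc, R3hdm1, S100a8, Socs7, Traf3, Ttr, Tyk2, Vcan and Vwf.

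**Figure D2:**
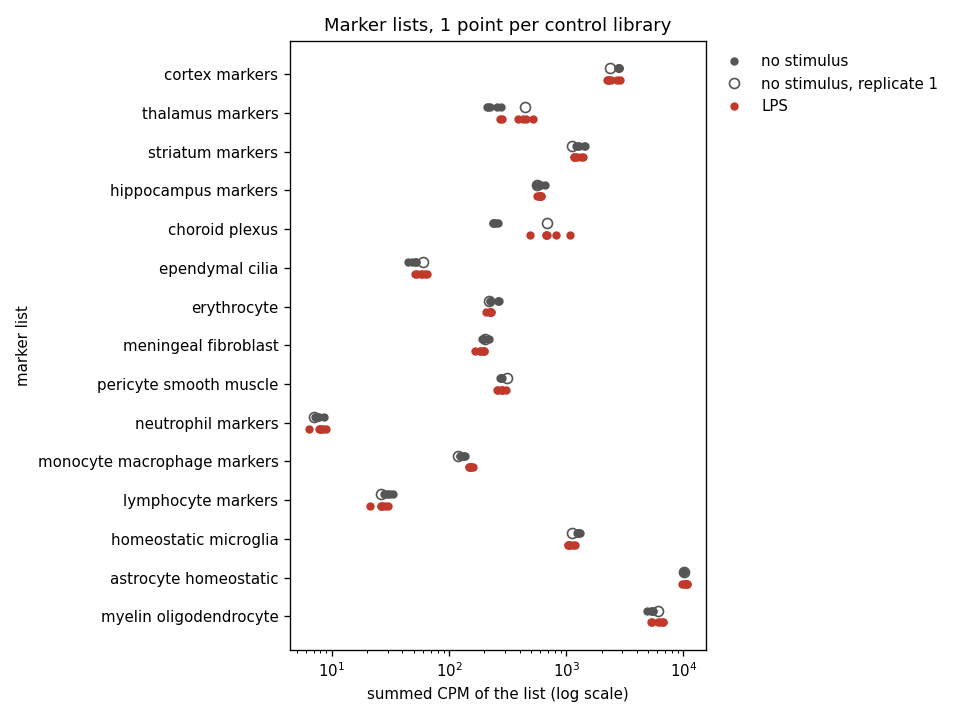
Summed CPM (log scale, horizontal axis) of the tested members of 15 marker lists in every control library, unstimulated in grey and LPS in red, 1 point per library. The choroid plexus and thalamus lists are the most spread, with unstimulated replicate 1 (open circle) inside the LPS range for both, while the homeostatic microglia list is lower under LPS, with overlapping ranges and medians of 1260 and 1070 CPM.

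Some genes of LPS recognition changed, though not the receptor gene Tlr4 by this test. In this and later paragraphs 3 values in a row are the lowest, median and highest of 6 libraries, the log2 fold change is given with its SE, and the p is edgeR's, adjusted over all 21266 genes. Cd14, which hands LPS to the receptor, read 1.1, 1.65 and 1.82 CPM without LPS and 19.6, 25 and 28.4 CPM with it, a log2 fold change of 3.94 ± 0.24, adjusted p = 6.88e-13. Tlr2, the receptor for bacterial lipoproteins, read 0.502, 0.729 and 0.830 CPM without LPS and 14.6, 17.5 and 23.6 CPM with it (4.73 ± 0.34, adjusted p = 1.90e-11). For both genes every LPS library lay above every unstimulated one. Tlr4 itself read 1.08, 1.38 and 2.16 CPM without LPS and 1.24, 1.63 and 2.42 CPM with it, with overlapping groups and no call (0.12 ± 0.17, adjusted p = 0.69). Of the 16 tested members of the Toll-like receptor list, 6 rose and 1 fell (median log2 fold change 0.28). Lbp, the serum protein that presents LPS to CD14, rose by 1.47 ± 0.21, and the receptor for double-stranded RNA, Tlr3, by 1.04 ± 0.09, while Tlr12, a receptor for profilin, fell (-1.68 ± 0.26). Among 21 adaptors and kinases 8 rose and 4 fell (5 and 0 with the Ttr level in the model, 6 and 0 with surrogate variables). The adaptor Myd88 rose by 1.59 ± 0.12 and Irak3, a kinase relative that blocks signalling, by 2.46 ± 0.19, whereas Traf3, an adaptor on the interferon branch, fell by a small amount (-0.24 ± 0.05).

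Most NF-kB genes rose, inhibitors included. Of 19 subunits and regulators 15 rose and 0 fell, with a median log2 fold change of 1.16. Bcl3, a nuclear partner of the p50 and p52 subunits, read 0.163, 0.236 and 0.362 CPM without LPS and 5.61, 6.84 and 7.51 CPM with it (4.77 ± 0.24, adjusted p = 1.35e-14). The inhibitor Nfkbia read 19, 21.3 and 26.5 CPM without LPS and 51.4, 60.5 and 62.4 CPM with it (1.42 ± 0.12, adjusted p = 4.00e-10), and Tnfaip3, an enzyme that removes ubiquitin and ends NF-kB signalling, read 5.31, 6.15 and 6.87 CPM without LPS and 23.8, 34.1 and 41 CPM with it (2.43 ± 0.25, adjusted p = 2.10e-08). The groups did not overlap for these 3 genes. Zfp36 and Zc3h12a, whose proteins destroy cytokine messages, rose by 2.80 ± 0.18 and 2.45 ± 0.29. The deubiquitinase Cyld had no call, at 0.04 ± 0.04 (adjusted p = 0.548).

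Many chemokine genes rose, some of them from traces. Cxcl10, which attracts T cells, read 0.231, 0.463 and 0.804 CPM without LPS and 145, 197 and 241 CPM with it (8.72 ± 0.45, adjusted p = 2.28e-14). Cxcl1, which attracts neutrophils, read 0, 0.106 and 0.241 CPM without LPS and 21.3, 46.6 and 51.8 CPM with it (8.66 ± 0.64, adjusted p = 3.04e-11). Ccl2, which attracts monocytes, read 0, 0.0676 and 0.0865 CPM without LPS and 14.8, 26.4 and 33.3 CPM with it (8.76 ± 0.62, adjusted p = 1.59e-11). In each case the lowest LPS library was far above the highest unstimulated one. Of the 17 tested CXC and CX3C ligands and receptors 8 rose and 3 fell, and of 24 CC members 16 rose and 1 fell; 7 and 6 more were not kept by the filter. Among the genes that fell were a pair of ligands. Cxcl12, which holds leukocytes and progenitors in place, read 55.6, 61.8 and 66.3 CPM without LPS and 19.1, 20.7 and 24.2 CPM with it (-1.53 ± 0.09, adjusted p = 2.57e-13), with no overlap, and Cx3cl1, the neuronal ligand of the microglial receptor CX3CR1, fell slightly (-0.19 ± 0.05) with overlapping groups. The decoy receptor Ccrl2 rose by 4.63 ± 0.34 and the scavenger ligand Cxcl16 by 1.97 ± 0.20.

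Cytokine genes that rose included ligands and receptors. Il1b, the main secreted interleukin 1, read 0.128, 0.258 and 0.414 CPM without LPS and 4.08, 6.33 and 8.74 CPM with it (4.61 ± 0.46, adjusted p = 1.03e-08). Its receptor antagonist Il1rn read 0, 0.0187 and 0.0591 CPM without LPS and 4.21, 5.42 and 7.35 CPM with it (7.84 ± 0.63, adjusted p = 1.63e-10). The signalling receptor Il1r1 read 4.7, 5.59 and 6.52 CPM without LPS and 14.3, 15.6 and 17.5 CPM with it (1.47 ± 0.10, adjusted p = 2.59e-12). All 3 rose without overlap, and Sigirr, an inhibitory receptor of the family, fell (-1.48 ± 0.22). Il6, an inducer of the acute-phase response, read 0, 0.0320 and 0.0692 CPM without LPS and 2.04, 3.71 and 6.62 CPM with it (6.89 ± 0.62, adjusted p = 1.42e-09), and Lif, which signals through the same subunit gp130, read 0.207, 0.403 and 0.675 CPM without LPS and 2.99, 8.92 and 12.5 CPM with it (4.33 ± 0.48, adjusted p = 8.41e-08). Osmr, the oncostatin M receptor, read 3.34, 3.95 and 4.48 CPM without LPS and 28.9, 32.3 and 35 CPM with it (3.02 ± 0.14, adjusted p = 4.22e-15), so ligand and receptor messages of the gp130 group were both raised; 10 of its 18 tested members rose and 1 fell. Csf3, the neutrophil growth factor, read 0.0159, 0.0848 and 0.193 CPM without LPS and 14.7, 24.5 and 28.9 CPM with it (7.94 ± 0.56, adjusted p = 1.11e-11), while its receptor Csf3r fell (-0.32 ± 0.07), as did Csf1r (-0.24 ± 0.03), the receptor that microglia depend on, and its ligand Il34 (-0.26 ± 0.06). The second ligand of that receptor, Csf1, rose by 1.29 ± 0.11.

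Tumour necrosis factor ligands and receptors moved in both directions. Tnf held 1 count in the 6 unstimulated libraries and 752 in the 6 LPS libraries, a ratio of 721 per library total with a 95% exact binomial interval from 129 to 28500 that covers counting error only. Tnfsf10, the death ligand TRAIL, read 1.31, 2.12 and 2.33 CPM without LPS and 25.7, 31.4 and 33.9 CPM with it (3.92 ± 0.20, adjusted p = 1.56e-14), with no overlap. Of 9 tested ligands 4 rose and 2 fell, and 9 were not kept by the filter. Of 26 receptors 10 rose and 3 fell (4 and 2 with the Ttr level in the model, 5 and 2 with surrogate variables). The costimulatory receptor Cd40 rose by 4.39 ± 0.23 and both TNF receptors, Tnfrsf1a and Tnfrsf1b, by 1.45 ± 0.11 and 0.93 ± 0.11, and the death receptor Tnfrsf25 fell (-1.37 ± 0.22). Il12b, the shared subunit of interleukins 12 and 23, had no count in any unstimulated library and 339 under LPS, at least 108-fold higher when 3 counts over the group are taken as the floor. Il4ra, the receptor chain for interleukins 4 and 13, rose by 2.55 ± 0.12, and 10 of the 19 members of its list rose and 1 fell.

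**Figure D3:**
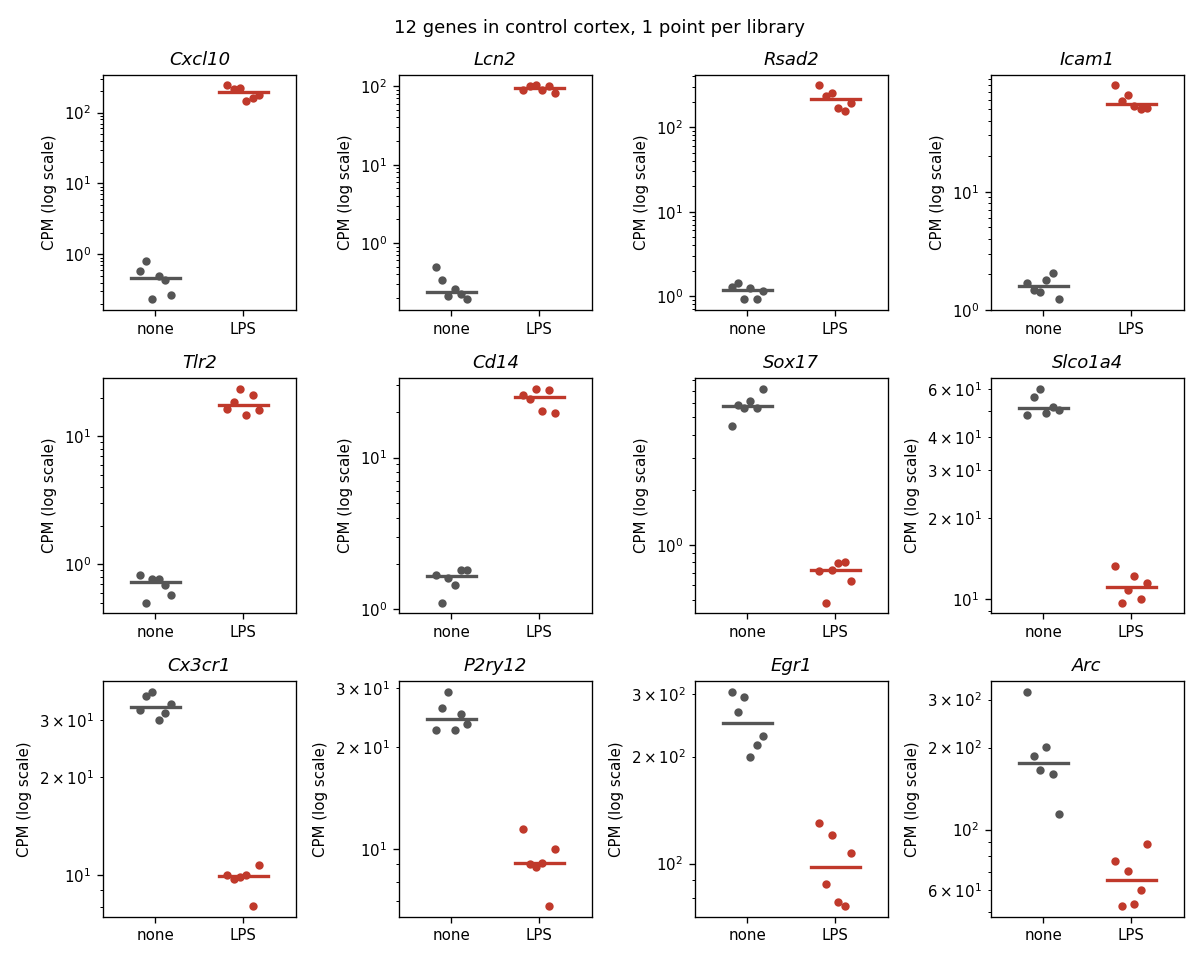
CPM (log scale, vertical axis) of 12 genes in the 6 unstimulated (grey) and 6 LPS (red) control libraries, 1 point per library, with a bar at the median. Cxcl10, Lcn2, Rsad2, Icam1, Tlr2 and Cd14 rise without overlap, and Sox17, Slco1a4, Cx3cr1, P2ry12, Egr1 and Arc fall without overlap.

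Most members of the interferon-effector lists rose. No interferon ligand gene was kept by the filter: all 10 listed, among them Ifnb1, Ifng and the Ifna genes, held at most 4 counts in a control library. Of the 6 interferon receptor chains tested, 2 rose and 1 fell. Irf7, the factor that amplifies interferon production, read 1.14, 1.69 and 1.9 CPM without LPS and 22.9, 28.6 and 32.2 CPM with it (4.10 ± 0.17, adjusted p = 4.45e-16), and Irf1, a factor of the same family, read 3.25, 3.87 and 4.2 CPM without LPS and 16.4, 20.7 and 25.4 CPM with it (2.45 ± 0.20, adjusted p = 2.35e-10). The groups did not overlap for either gene. Irf3, which exists in resting cells and is switched on by phosphorylation, had no call (-0.05 ± 0.07, adjusted p = 0.703). Of 23 members of the IRF, STAT, JAK and C/EBP list 13 rose and 2 fell, 1 of them the kinase Tyk2 (-0.21 ± 0.06).

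The guanylate-binding proteins and immunity-related GTPases, which attack vacuoles that hold microbes, rose in 19 of 19 tested cases (median 3.86). Gbp2 read 1.93, 2.08 and 3.68 CPM without LPS and 116, 141 and 161 CPM with it (5.90 ± 0.34, adjusted p = 3.00e-13), Gbp5 read 1.69, 1.95 and 3.21 CPM without LPS and 112, 131 and 158 CPM with it (5.92 ± 0.34, adjusted p = 1.82e-13) and Iigp1 read 0.542, 0.953 and 1.7 CPM without LPS and 51.3, 67 and 79.2 CPM with it (6.02 ± 0.34, adjusted p = 1.82e-13), without overlap in each case. Ifit, Oas, Mx and related antiviral genes rose in 23 of 25 cases (median 3.24). Rsad2, whose enzyme viperin makes a chain-terminating nucleotide, read 0.916, 1.2 and 1.45 CPM without LPS and 156, 213 and 311 CPM with it (7.57 ± 0.33, adjusted p = 9.60e-16), Ifit1, which binds foreign RNA ends, read 1.88, 2.3 and 3.04 CPM without LPS and 61.8, 75.6 and 98.3 CPM with it (4.98 ± 0.27, adjusted p = 8.24e-14), and Mx1, a GTPase that blocks influenza virus, read 0.213, 0.324 and 0.588 CPM without LPS and 12.7, 17.7 and 22.3 CPM with it (5.56 ± 0.32, adjusted p = 1.66e-13). In the family of oligoadenylate synthetases, which respond to double-stranded RNA, Oasl1 rose by 6.24 ± 0.30 and Oas3 by 4.37 ± 0.39.

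The system that attaches the ubiquitin-like protein ISG15 and its partners rose in 15 of 16 cases (median 1.75). Isg15 read 1.31, 1.57 and 2.13 CPM without LPS and 15.8, 18.9 and 19.8 CPM with it (3.50 ± 0.18, adjusted p = 2.02e-14), and Usp18, which removes ISG15 and damps interferon signalling, read 0.591, 0.977 and 1.52 CPM without LPS and 16.3, 18.6 and 22.2 CPM with it (4.18 ± 0.18, adjusted p = 1.26e-15). Rnf213, a large ubiquitin ligase already present at rest, read 17.3, 21 and 25.6 CPM without LPS and 121, 145 and 173 CPM with it (2.81 ± 0.14, adjusted p = 2.17e-14). No library of one group reached the range of the other for these 3. All 8 tested Schlafen genes rose (median 3.24), led by Slfn4 (7.92 ± 0.40) and with Slfn5 the most abundant at 5.35, 7.39 and 8.2 CPM without LPS and 56.4, 76.5 and 89.1 CPM with it (3.38 ± 0.14). Sensors of foreign nucleic acid rose in 9 of 13 cases, among them the RNA helicase Ifih1 (2.92 ± 0.14), Zbp1, which senses Z-form nucleic acid (4.07 ± 0.27), and Tmem173, which encodes STING (1.39 ± 0.11); Mavs, the mitochondrial adaptor of the helicases, had no call (-0.15 ± 0.09, adjusted p = 0.252). In the TRIM family, ubiquitin ligases of mixed function, 14 of 54 rose and 6 fell (3 fell with the Ttr level and 2 with surrogate variables in the model), with a median of 0.07.

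Most genes of class I antigen presentation rose. Proteasome genes divided by subunit. Each of the 6 immunoproteasome and PA28 genes rose (median 1), against 1 of 33 constitutive subunit genes (median 0.02). Psmb8, a catalytic subunit of the immune form, read 1.25, 1.41 and 1.71 CPM without LPS and 7.42, 8.36 and 9.71 CPM with it (2.53 ± 0.17, adjusted p = 4.46e-12). Tap1, which carries the cut peptides into the endoplasmic reticulum, read 1.61, 2.11 and 2.23 CPM without LPS and 17.4, 20.8 and 23.2 CPM with it (3.37 ± 0.19, adjusted p = 2.39e-13), and H2-K1, a classical class I heavy chain, read 12.5, 13.8 and 17.3 CPM without LPS and 41.4, 47.1 and 52.2 CPM with it (1.69 ± 0.14, adjusted p = 3.98e-10). B2m, the light chain of every class I molecule, read 43.8, 44.8 and 47.4 CPM without LPS and 73.2, 76.2 and 81.7 CPM with it (0.77 ± 0.06, adjusted p = 4.60e-10), a smaller rise than that of the heavy chain. Of 21 class I genes 17 rose and none fell, and the transactivator Nlrc5 rose by 4.29 ± 0.27. On the class II side 4 of 14 genes rose (2 with the Ttr level and 2 with surrogate variables in the model). These are the invariant chain Cd74 (0.62 ± 0.15) and 3 ligands of T cell coreceptors, Cd274, which encodes PD-L1 (4.86 ± 0.27), Cd86 (1.73 ± 0.17) and Cd80 (1.04 ± 0.26). The class II chain H2-Ab1 read 0.675, 0.776 and 1.3 CPM without LPS and 0.594, 0.711 and 0.890 CPM with it, with no call (-0.23 ± 0.25, adjusted p = 0.6).

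Genes of Serpina3 inhibitors and other acute-phase proteins rose in 12 of 13 tested cases (median 4.05), and 12 listed genes, most of them liver products such as Fga and Orm1, were not kept. Serpina3n, a protease inhibitor of reactive astrocytes, read 6.12, 7.19 and 10.3 CPM without LPS and 23.6, 38.6 and 50.6 CPM with it (2.29 ± 0.22, adjusted p = 3.82e-09), without overlap. Genes of metal handling rose in 8 of 22 cases (36.4%) and fell in 2 (9.09%, near the 8.12% of all tested genes). Lcn2, which withholds iron carriers from bacteria, read 0.191, 0.239 and 0.502 CPM without LPS and 82.9, 96 and 102 CPM with it (8.37 ± 0.30, adjusted p = 3.00e-17), also without overlap. Mt1 and Mt2, metallothioneins that buffer zinc, rose by 1.26 ± 0.09 and 1.84 ± 0.11, Steap4, a metal reductase, by 6.01 ± 0.36, and the iron exporter gene Slc40a1 read 6.93, 8.69 and 9.12 CPM without LPS and 1.9, 2.48 and 2.93 CPM with it (-1.74 ± 0.14, adjusted p = 1.93e-10), lower in all 6 LPS libraries. Complement genes rose in 10 of 22 cases and none fell. The receptor C5ar1 rose by 3.45 ± 0.19 and the central component C3 by 2.56 ± 0.42.

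Genes of inflammasomes and cell death rose in 17 of 27 tested cases and none fell. Casp4, the sensor of LPS inside cells, read 0.0637, 0.220 and 0.266 CPM without LPS and 6.2, 7.31 and 9.23 CPM with it (5.33 ± 0.31, adjusted p = 2.89e-13). Mlkl, the pore former of necroptosis, read 0.0321, 0.204 and 0.522 CPM without LPS and 2.41, 3.04 and 3.94 CPM with it (3.74 ± 0.33, adjusted p = 1.06e-09). Birc3, an inhibitor of apoptosis, rose by 2.97 ± 0.23.

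Genes of prostaglandin metabolism moved in both directions. Ptgs2, the inducible cyclooxygenase, read 11.5, 12.8 and 17.5 CPM without LPS and 43, 64.1 and 76.2 CPM with it (2.21 ± 0.19, adjusted p = 7.01e-10). Ptges, the enzyme that completes prostaglandin E2, read 2.61, 3.13 and 3.37 CPM without LPS and 13.4, 14.6 and 18.8 CPM with it (2.30 ± 0.20, adjusted p = 6.05e-10). Hpgd, which inactivates prostaglandins, read 3.68, 4.33 and 4.95 CPM without LPS and 1.55, 1.84 and 2.31 CPM with it (-1.20 ± 0.14, adjusted p = 2.77e-07). The groups were separate for all 3. Over the list 4 of 26 rose and 9 fell (5 with the Ttr level and 3 with surrogate variables in the model). Ptgds, the abundant prostaglandin D synthase of meninges and choroid plexus, had no call (0.07 ± 0.07, adjusted p = 0.594).

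Enzymes that make reactive oxygen, nitric oxide or itaconate rose in 13 of 27 cases. Irg1, which makes the antibacterial metabolite itaconate, rose by 5.63 ± 0.46, inducible nitric oxide synthase Nos2 by 2.33 ± 0.34 and the phagocyte oxidase subunit Cybb by 2.13 ± 0.28. The 3 nitric oxide synthases differed. The endothelial form Nos3 read 8.7, 9.93 and 11.1 CPM without LPS and 3.35, 4.59 and 4.79 CPM with it (-1.17 ± 0.10, adjusted p = 4.13e-10) and was the member that fell, and the neuronal form Nos1 had no call (0.09 ± 0.06, adjusted p = 0.331).

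Blood vessel genes moved in both directions, with rises among adhesion proteins for leukocytes and falls among endothelial transcription factors and barrier transporters. Icam1 read 1.23, 1.59 and 2.05 CPM without LPS and 50.5, 55.5 and 79.1 CPM with it (5.20 ± 0.34, adjusted p = 3.36e-12), Selp, which slows leukocytes on the vessel wall, read 0, 0.0278 and 0.104 CPM without LPS and 9.28, 11.1 and 14.7 CPM with it (8.35 ± 0.54, adjusted p = 2.76e-12), and Vcam1 read 21.2, 22 and 22.9 CPM without LPS and 63.5, 71.5 and 81.2 CPM with it (1.71 ± 0.10, adjusted p = 4.83e-13). The groups did not overlap for any of the 3. Of 22 adhesion genes 7 rose and 2 fell (9.09%, near the 8.12% of all tested genes). Those that fell are the endothelial Pecam1 (-0.74 ± 0.08) and Selplg, the leukocyte and microglial ligand of selectins (-0.44 ± 0.07). Among 23 endothelial transcription factors 9 fell and 2 rose. Sox17 read 4.5, 5.76 and 7.19 CPM without LPS and 0.481, 0.723 and 0.802 CPM with it (-3.06 ± 0.16, adjusted p = 2.70e-14), and Klf4, which maintains a quiescent endothelium, read 5.4, 6.07 and 7.06 CPM without LPS and 2.26, 2.55 and 2.89 CPM with it (-1.29 ± 0.14, adjusted p = 6.83e-08). Sox7, the third member of the SoxF group with Sox17 and Sox18 (-2.84 ± 0.20), rose by 1.19 ± 0.16, as did Erg (0.58 ± 0.10).

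Barrier transporters fell in 17 of 29 cases and rose in 2 (12 and 0 with the Ttr level in the model). Slco1a4, an organic anion carrier of brain endothelium, read 48.4, 51.1 and 60.4 CPM without LPS and 9.69, 11.1 and 13.3 CPM with it (-2.23 ± 0.16, adjusted p = 1.46e-11). Slc22a8, which clears organic anions, fell (-1.22 ± 0.13). Cldn5, the main tight junction claudin of brain vessels, read 14.9, 15.6 and 19.1 CPM without LPS and 3.5, 5.69 and 9.36 CPM with it (-1.49 ± 0.17, adjusted p = 1.20e-07), and Ocln, another tight junction protein, read 7.89, 8.16 and 8.41 CPM without LPS and 3.42, 4.04 and 4.59 CPM with it (-1.01 ± 0.10, adjusted p = 7.45e-09). Both were lower in every LPS library, whereas Cdh5, the adherens junction cadherin, was higher in every one at 11, 12.2 and 12.9 CPM without LPS and 28.1, 31.3 and 37.8 CPM with it (1.41 ± 0.12, adjusted p = 7.13e-10). In the list of junction genes 10 of 26 fell and 4 rose (2 rose with the Ttr level in the model, 2 with surrogate variables).

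Of the angiopoietin pair, Angpt2, which loosens vessels, rose (1.68 ± 0.21) and the receptor Tek read 11.9, 12.7 and 14.5 CPM without LPS and 3.24, 3.52 and 3.9 CPM with it (-1.86 ± 0.09, adjusted p = 1.53e-14). The VEGF receptors differed, with Kdr at -0.92 ± 0.13 and Flt4 at 0.82 ± 0.08, both past the threshold. Over 33 genes of vessel growth 7 rose (4 with surrogate variables) and 12 fell. Genes of clotting and its lysis rose in 10 of 24 cases and fell in 3 (6 and 1 with the Ttr level in the model, 6 and 3 with surrogate variables). Plaur, the urokinase receptor, rose by 3.90 ± 0.25, and Vwf, which tethers platelets, read 15.7, 16.9 and 18.1 CPM without LPS and 7, 8.52 and 14.1 CPM with it (-0.89 ± 0.18, adjusted p = 5.13e-04). Of the genes of matrix proteases and their inhibitors, 15 of 39 rose and 2 fell (8 and 7 rose under the 2 covariate models). Mmp3 had no count without LPS and 297 with it, at least 95-fold higher against a floor of 3 counts over the group. Adamts1, which cuts proteoglycans, read 7.47, 8.44 and 11.6 CPM without LPS and 47.3, 59.6 and 71.2 CPM with it (2.70 ± 0.17, adjusted p = 1.07e-12). The basement membrane collagen Col4a1 rose by 0.80 ± 0.07, and the fibroblast collagen Col1a1 fell (-0.73 ± 0.14).

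Genes of meningeal fibroblasts fell in 9 of 19 cases and rose in 1; Slc22a6, an organic anion carrier, read 5.07, 6.07 and 6.89 CPM without LPS and 1.33, 2.09 and 2.61 CPM with it (-1.53 ± 0.20, adjusted p = 8.57e-07). Among 20 mural cell genes 7 fell (3 with the Ttr level in the model) and the pericyte gene Art3 rose, whose exons lie beside Cxcl10 and Cxcl11. The summed level of this list was 270 to 311 CPM without LPS and 256 to 307 with it, so the ranges overlapped.

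Most neutrophil and lymphocyte markers were too low to test, whereas most monocyte and macrophage markers were tested. Of the 17 neutrophil markers 11 were not kept, among them Ly6g, Mpo and Ngp. The summed level of the 6 tested markers alone ran from 7.04 to 8.5 CPM without LPS and from 6.39 to 8.91 with it. S100a8 and S100a9, calcium-binding proteins of myeloid cells, rose without overlap by 2.19 ± 0.42 and 2.59 ± 0.40, to LPS medians of 0.644 and 0.714 CPM. Of 21 lymphocyte markers 17 were not kept, including the T cell receptor genes Cd3d, Cd3e and Cd3g and the B cell gene Cd79a. Of 17 tested monocyte and macrophage markers 8 rose and 2 fell. The summed level of these tested markers was higher in all 6 LPS libraries, at 147 to 161 CPM against 120 to 137 without LPS (exact permutation p = 0.00216, the smallest that 6 against 6 allows, 0.0475 adjusted over the 22 single values). The sum was mostly Fn1 and Vcan, matrix proteins that many other cells also make, which are named here after their values were seen. Fn1 read 55.1, 61.8 and 70.9 CPM without LPS and 75.1, 82.2 and 86.7 CPM with it (0.37 ± 0.07, adjusted p = 2.50e-04), and Vcan read 26.7, 27.8 and 28.9 CPM without LPS and 28.1, 31.4 and 33.8 CPM with it (0.17 ± 0.05, adjusted p = 0.011). Clec4e, a receptor for mycobacterial glycolipid, had no count without LPS and 244 with it, at least 78-fold higher against the same floor, and the monocyte marker Ly6c2 had no call (0.11 ± 0.13, adjusted p = 0.628). Cd163, a haemoglobin scavenger of perivascular macrophages, fell (-0.77 ± 0.12). Ptprc, the CD45 gene of all leukocytes and microglia, read 3.37, 4.18 and 4.84 CPM without LPS and 5.07, 5.09 and 5.42 CPM with it (0.33 ± 0.10, adjusted p = 0.0144). The part of blood cells in any of these changes was not tested.

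Microglial genes of the resting state fell more often than they rose, and in the list of activation genes there were rises and no falls. Gpr34, a lysophosphatidylserine receptor, read 6.81, 7.59 and 9.25 CPM without LPS and 1.3, 1.6 and 2.65 CPM with it (-2.12 ± 0.19, adjusted p = 1.13e-09). P2ry12, the ADP receptor that steers microglial processes, read 22.5, 24.3 and 29.1 CPM without LPS and 6.78, 9.07 and 11.4 CPM with it (-1.43 ± 0.13, adjusted p = 3.18e-09). Cx3cr1 read 30.1, 32.9 and 36.6 CPM without LPS and 8.05, 9.93 and 10.7 CPM with it (-1.77 ± 0.12, adjusted p = 7.50e-12). The 2 groups were separate for each. Of 36 resting-state genes 18 fell and 6 rose (median -0.25), and the adjusted exact permutation p of their summed level was 0.0475. That sum is not a measure of microglia alone. Its most abundant member that did not pass, Mef2c, is also in the list of cortex markers. P2ry6, the UDP receptor that triggers phagocytosis, was among the resting-state genes that rose, at 1.04, 1.73 and 2.35 CPM without LPS and 3.98, 4.42 and 5.13 CPM with it (1.42 ± 0.16, adjusted p = 6.83e-08). The messages of P2ry6 and P2ry12, 2 nucleotide receptors of this list, thus moved in opposite directions in whole tissue. Of 32 activation genes 18 rose and none fell (12 rose with the Ttr level in the model and 12 with surrogate variables). Gpr84, a receptor for medium-chain fatty acids, rose by 5.08 ± 0.37, Cd300lf, an inhibitory lipid receptor, by 4.12 ± 0.26, and Apoe had no call (0.03 ± 0.05, adjusted p = 0.727). Genes of purine signalling and turnover rose in 7 of 20 cases and fell in 4 (2 with surrogate variables). Nt5e, which makes adenosine outside cells, rose by 0.89 ± 0.09.

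Reactive astrocyte genes rose in 31 of 37 cases and fell in 1. The largest rises in this list, those of Cxcl10, Lcn2, Iigp1 and Steap4, are also counted in other lists. Vim, S100a10 and Fbln5 were its most abundant members with no call. Gfap, the astrocyte filament, read 102, 107 and 130.0 CPM without LPS and 189, 221 and 240.1 CPM with it (0.96 ± 0.11, adjusted p = 5.83e-08), without overlap. Of 27 homeostatic astrocyte genes 8 rose, Gfap included (3 with the Ttr level and 3 with surrogate variables in the model, 11 without unstimulated replicate 1). The glutamate transporter Slc1a2 read 2511, 2944 and 3051 CPM without LPS and 2557, 2688 and 3177 CPM with it, with overlapping groups (-0.08 ± 0.07, adjusted p = 0.497). None of the 30 myelin and oligodendrocyte genes was free of overlap, against 5.41% of all tested genes with LPS above and 3.76% with LPS below. Of the 30 genes 5 rose and 2 fell, 0 and 1 with the Ttr level in the model and 0 and 2 with surrogate variables. Beside them, choroid plexus genes rose in 14 of 19 cases, 0 with the Ttr level, 2 with surrogate variables and 19 without unstimulated replicate 1, and thalamus markers in 1 of 12, 9 without that replicate. Whether the choroid, thalamus and myelin values follow from the tissue taken was not tested.

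Genes transcribed after synaptic activity moved in both directions, with more falls than rises. Arc, which removes glutamate receptors from synapses, read 114, 176 and 320.0 CPM without LPS and 52.6, 65.2 and 88.7 CPM with it (-1.51 ± 0.23, adjusted p = 1.01e-05). Egr1 read 199.9, 248 and 304 CPM without LPS and 76.1, 97.6 and 130.0 CPM with it (-1.33 ± 0.16, adjusted p = 3.71e-07). Nr4a1, a nuclear receptor of the same class of early genes, read 63.9, 86.5 and 115 CPM without LPS and 30.2, 34.5 and 51.6 CPM with it (-1.20 ± 0.17, adjusted p = 5.06e-06). Every LPS library was below every unstimulated one for all 3. The growth factor Bdnf fell as well (-0.74 ± 0.10), as did Npas4 (-1.17 ± 0.25) and the postsynaptic scaffold Homer1 (-0.47 ± 0.08). Of 46 activity-regulated genes 24 fell and 12 rose (7 rose with surrogate variables). Those that rose are led by stress-induced factors, Atf3 (3.26 ± 0.33) and Maff (2.57 ± 0.22), and by Ier3 (1.78 ± 0.17). Fos read 14.8, 22.1 and 44.7 CPM without LPS and 16, 22.9 and 23.7 CPM with it, with overlapping groups and no call (-0.17 ± 0.23, adjusted p = 0.676). Dual-specificity phosphatases that switch off MAP kinases also divided, with Dusp6 at 55.4, 56.4 and 61.3 CPM without LPS and 30.3, 33.1 and 37.6 CPM with it (-0.77 ± 0.07, adjusted p = 5.60e-09) and Dusp2, the form of immune cells, at 1.96 ± 0.25, which rose. Of the 25 phosphatases and feedback genes 9 fell and 6 rose (4 and 4 with the Ttr level in the model, 7 and 3 with surrogate variables).

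Other neuronal lists differed in how many genes were called. Of 26 glutamate receptor subunit genes 1 rose and 1 fell, of 18 GABA receptor subunit genes 1 rose and 1 fell, and of 83 potassium channel genes 7 rose and 9 fell (1 and 1 with the Ttr level in the model, 3 and 1 with surrogate variables). The potassium channel shares, 8.43% and 10.8%, lie near the 9.52% and 8.12% of all tested genes. Of 21 markers of cortical excitatory neurons 7 fell and none rose (4 fell with the Ttr level in the model), led by the transcription factor Neurod6 at 38.7, 47 and 49.2 CPM without LPS and 25.3, 29.4 and 34 CPM with it (-0.63 ± 0.08, adjusted p = 9.00e-07), which did not overlap. The lists of oxidative phosphorylation (2 of 92 rose), cytosolic ribosomal proteins (1 of 80) and cholesterol synthesis (3 rose and 1 fell of 33) held fewer calls than the 17.6% of all genes, with medians of 0.02, 0.01 and 0.03.

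**Figure D4:**
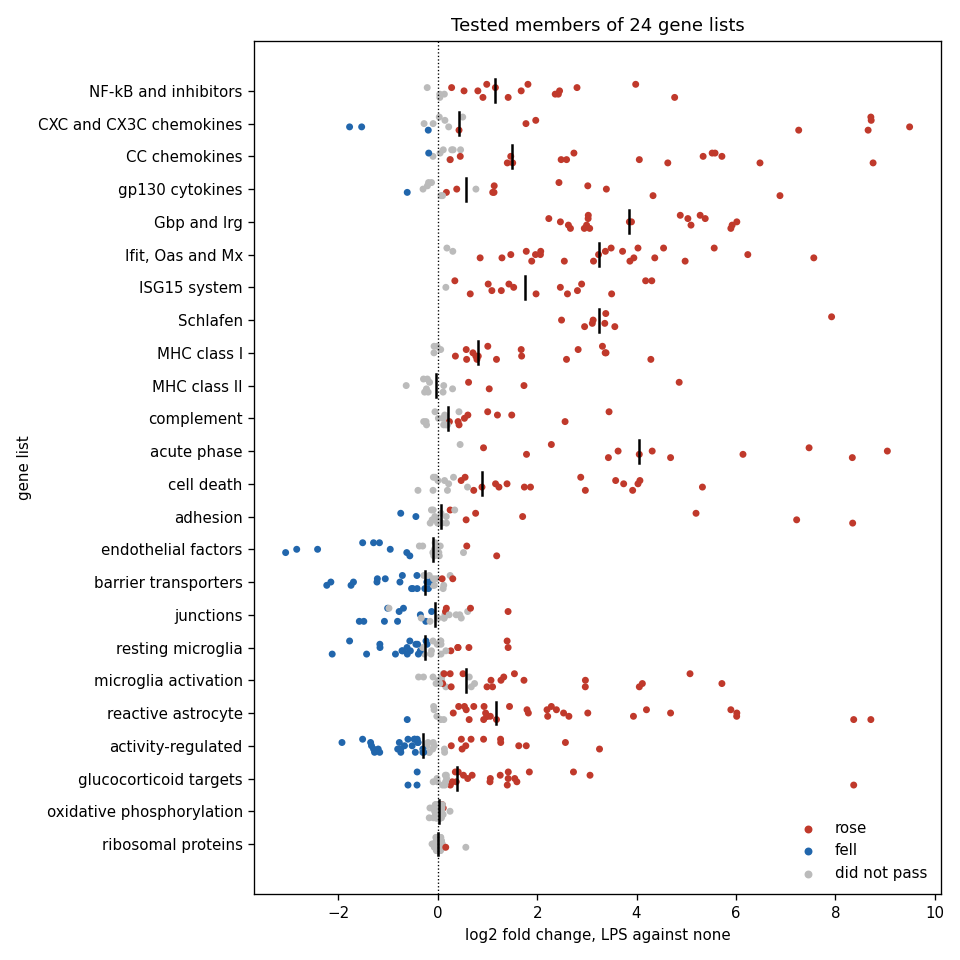
Log2 fold change under LPS (horizontal axis) of every tested member of 24 gene lists, 1 point per gene, red for genes that rose, blue for genes that fell and grey for genes that did not pass; black ticks are list medians and the dotted line is 0. The Gbp and Irg, Ifit and Oas, Schlafen and acute-phase lists lie almost wholly to the right, barrier transporters, resting-state microglia and activity-regulated genes lean to the left, and oxidative phosphorylation and ribosomal protein genes sit at 0.

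Most genes in a list of glucocorticoid-responsive genes rose. Fkbp5, a chaperone that feeds back on the glucocorticoid receptor, read 38.1, 54.7 and 70.7 CPM without LPS and 103, 112 and 126 CPM with it (1.06 ± 0.15, adjusted p = 6.91e-06), and Cdkn1a, a cell cycle inhibitor, read 14.4, 24.3 and 27.5 CPM without LPS and 54.9, 68.2 and 75.1 CPM with it (1.59 ± 0.13, adjusted p = 2.96e-10). The receptor gene Nr3c1 read 98.8, 113 and 122 CPM without LPS and 79.2, 84.3 and 87.1 CPM with it (-0.42 ± 0.06, adjusted p = 5.15e-06). Fkbp5 and Cdkn1a thus rose while the receptor message fell, each without overlap. Other members of the list did not follow Fkbp5 and Cdkn1a. Per1 and Slc2a1 fell, and Fam107a, Htra1 and Tsc22d3 were the most abundant members with no call. Of 32 genes in the list 20 rose and 3 fell, and some of these, such as Lcn2, also belong to other lists; with the Ttr level in the model 13 rose. Clock genes fell in 7 of 24 cases and rose in 1 (3 fell with the Ttr level in the model). Per2 read 58.4, 72.6 and 84.4 CPM without LPS and 38.8, 40.6 and 47.1 CPM with it (-0.81 ± 0.09, adjusted p = 1.20e-07), and the hour at which tissue was taken was not given in the sources used here. Among feedback inhibitors of cytokine receptors, Socs3 read 2.07, 2.5 and 3.18 CPM without LPS and 31, 39.6 and 40.3 CPM with it (3.88 ± 0.22, adjusted p = 1.82e-13) and Socs1 rose by 1.61 ± 0.20, while Socs7 fell slightly (-0.15 ± 0.04).

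Changes were also ranked in CPM, a scale that grows with transcript length, over genes that passed, did not overlap between the groups and averaged at least 1 on the log2 CPM scale. The lincRNA gene Gm26809 gained most, at 18.8, 20.4 and 22.1 CPM without LPS and 202, 253 and 368 CPM with it (3.68 ± 0.25, adjusted p = 6.89e-12). Akap12, a scaffold for protein kinase A, read 24.4, 27.8 and 34.5 CPM without LPS and 218, 253 and 290.4 CPM with it (3.16 ± 0.18, adjusted p = 1.36e-13), and Clic4, a chloride channel-like protein, read 80.8, 84.5 and 102 CPM without LPS and 234, 255 and 274 CPM with it (1.54 ± 0.10, adjusted p = 1.60e-12). After Egr1 and Arc the largest losses were those of R3hdm1, which encodes a protein with an R3H domain, at 369, 419 and 445 CPM without LPS and 287, 307 and 362 CPM with it (-0.39 ± 0.06, adjusted p = 1.61e-05), and of 9430020K01Rik, at 158, 187 and 193 CPM without LPS and 91, 95 and 109 CPM with it (-0.93 ± 0.07, adjusted p = 6.29e-11). Genes annotated as lincRNA rose in 36 of 731 cases and fell in 33, against 1802 and 1533 of 15921 protein-coding genes. Under the same conditions AW112010 had the largest rise of a long noncoding RNA, at 0.414, 0.573 and 0.796 CPM without LPS and 10.2, 12.4 and 14.4 CPM with it (4.38 ± 0.24, adjusted p = 1.24e-13), and the antisense gene Gm15587 the largest fall (-1.02 ± 0.13). The strand setting of the counting is not given, so reads of an antisense gene cannot be separated from those of the gene opposite.

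Some genes that rose lay beside each other. Of the 586 genes that rose 2-fold or more, 29.2% were followed along the chromosome by a tested gene that did the same, and 2.76% of all tested genes rose that far. They formed 38 runs of 3 or more neighbours, 156 genes in all. The longest, of 10 genes on chromosome 1 (chr1:173468509-174031810, mm10), holds the interferon-inducible Ifi204, Ifi203, Mnda, Mndal and Pyhin1 with log2 fold changes from 1.96 to 5.96. A run of 9 on chromosome 11 (chr11:82942341-83215154) is the Schlafen cluster, from 2.49 to 7.92, and another of 7 on the same chromosome (chr11:48861968-49135387) holds Irgm1 and Tgtp1. Other runs were the guanylate-binding proteins on chromosomes 3 and 5, the immunoproteasome and peptide transporter genes (6 genes, chr17:34181988-34216321), the H2-Q class I genes, the selectins Sele and Selp, the Serpina3 genes, the chemokines Ccl2, Ccl7, Ccl11 and Ccl12 (4 genes, chr11:82035571-82103400), Cxcl9 to Cxcl11, and the metalloproteinases Mmp13, Mmp12 and Mmp3. Members of such families resemble each other in sequence, and reads shared between them could be assigned to the wrong one or dropped. Some runs also count entries beside a known gene as neighbours, such as Slfn5os beside Slfn5 and Gm16587 beside Selp. The strand setting is not given, so where exons overlap, reads of one gene could count for the other and lengthen a run.

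Sequence overlap bears on some of the single genes above. In the GENCODE M21 annotation at least 20% of the exonic bases of Gm15587, Gm26809, Gpr84, Mt2 and Nos3 lie in exons of another gene on either strand. Their counts may include reads from the partner.

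The response in controls was set beside that of the 12 libraries labelled Abca7, which share no library with it. The test of the difference between the LPS effects called 0 of 21266 genes (0%) in edgeR and 0 in DESeq2, with 713 and 704 at an unadjusted p under 0.05. Of the 2024 genes that rose in controls, 1224 also passed as rises under the Abca7 label, 60.5% of the first list and 85.2% of the 1436 of the second, and of the 1727 that fell 897 did, 51.9% and 78.9% of 1137. No gene was called in opposite directions under the 2 labels. The genes that rose 4-fold or more in controls had a median log2 fold change of 3.321 there and 2.969 under the Abca7 label, where the choice of genes from the control libraries favours the first. Cxcl10 was at 8.72 and 7.29, Lcn2 at 8.37 and 6.80, Gbp2 at 5.90 and 4.89, Mx1 at 5.56 and 5.55, Sox17 at -3.06 and -2.71, and Arc at -1.51 and -1.46. The smallest p of the difference was that of Dlec1, a cilia-associated gene, whose log2 difference was 0.48 ± 0.10 (adjusted p = 1). Without unstimulated replicate 1 the test of the difference called 7 genes: F5, Folr1, Kl, Mfrp, Slc4a5, Tmem72 and Ttr. Several of these, such as Ttr and Kl, are known products of choroid plexus. In libraries labelled Abca7, Ttr ran from 48.1 to 449 CPM without LPS and from 24.3 to 381 CPM with it. The cause was not tested.

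**Figure D5:**
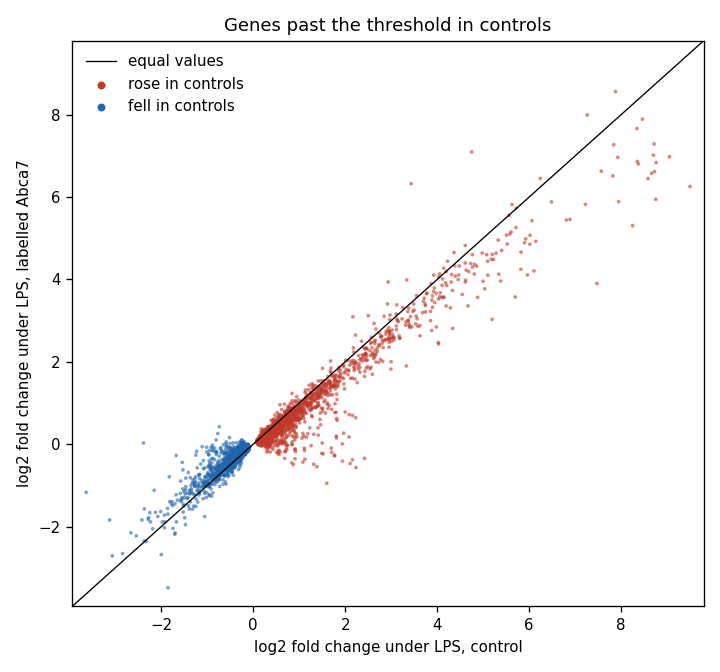
Log2 fold change under LPS in control cortex (horizontal axis) against that in cortex labelled Abca7 (vertical axis) for the 3751 genes past the threshold in controls, 1 point per gene, red for genes that rose and blue for genes that fell; the line marks equal values. No single gene was called different between the labels.

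The ages of the animals differed between the groups, and the changes were looked at within 1 age. At 55 days there were 2 unstimulated and 2 LPS libraries, and at 56 days 3 and 3; the remaining libraries stand alone at 54 or 57 days. Of the genes that rose 98.9% had a higher mean log2 CPM under LPS at both ages, and of those that fell 98.2% a lower one, in libraries that also chose these genes. Mean log2 CPM of Cxcl10 went from -1.41 to 7.70 at 55 days and from -0.95 to 7.43 at 56 days, and that of Sox17 from 2.68 to -0.50 and from 2.42 to -0.49. Both genes therefore changed in the same direction within each age.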

How the data were processed

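Cortical RNA of 24 mice was sequenced on the HiSeq 4000 and aligned with STAR 2.5.2b to mm10, per the submitters' processing notes, and the authors deposited raw read counts per gene from MAP-RSeq 2.1.1, per the labels' design text. For the annotation release, the strand setting and the treatment of reads with several matches nothing is stated in the sources used here. The file also holds a coding length per gene as the authors deposited it. Groups were taken from the genotype and stimulus labels. Each library is 1 animal. Genes with 10 or more counts in at least 6 of 12 control libraries were fitted over all 24 libraries in 4 groups with edgeR 4.0.16 (R 4.3.3), using TMM factors and the quasi-likelihood F test. Benjamini-Hochberg adjustment covered all tested genes, with a threshold of 0.05, and the SE is the fold change divided by the root of F. CPM use TMM-scaled totals. The alternatives used DESeq2 1.42.0, sva 3.50.0, other filters, covariates and left-out libraries. The fit was checked on simulated counts. Members and lists were chosen with earlier results of these data known. Genes were named by rank of change within a list or over all genes, as the most abundant members that did not pass, or for their role, and some genes are not reported here. Positions and gene types are from GENCODE M21, which held 97.96% of identifiers, and promoters from RefSeq (GRCm38.p6).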

Additional observations from a re-analysis of the deposited data

Results flagged for a closer look

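For each named gene the 6 CPM values of a group were examined for one far from the other 5, with the gap to the nearest divided by the whole range and set against Dixon's 95% critical value for 6 values. Chance flags about 1 in 20 groups, and 26 libraries were found apart in 334 groups, 12 of them unstimulated replicate 1. In each bracket below the CPM of that library is set against that of the nearest other library. Unstimulated replicate 1 was high for Atf3 (2.25 against 0.568), C3 (1.05 against 0.281), Cd274 (2.87 against 1.61), Gbp2 (3.68 against 2.55), Irg1 (0.121 against 0.0444), Lbp (2.98 against 1.89), Npas4 (23.9 against 14.8) and Ttr (261 against 19.7). The same library was low for 9430020K01Rik (158 against 182), Il34 (40.5 against 47.7), Slc17a7 (829 against 945) and Slc1a2 (2511 against 2917). Of the remaining unstimulated libraries, high values were those of Cd86 (replicate 3, 2.47 against 1.66), Ptgds (replicate 6, 538 against 446), S100a8 (replicate 2, 0.281 against 0.161), Steap4 (replicate 2, 0.422 against 0.340) and Tnf (replicate 4, 0.0161 against 0), where the Tnf value is 1 count. A low unstimulated value was that of Tnfsf10 (replicate 6, 1.31 against 2.04). LPS libraries were high for 9430020K01Rik (replicate 6, 109 against 95.5), Dusp2 (replicate 1, 3.92 against 2.5), Ptprc (replicate 3, 5.42 against 5.1), Traf3 (replicate 2, 66 against 61.3) and Vwf (replicate 1, 14.1 against 9.31). They were low for Cx3cr1 (replicate 5, 8.05 against 9.76), Fos (replicate 4, 16 against 22.2) and Nos3 (replicate 2, 3.35 against 4.48).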

How the results depend on the processing

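The count of genes past the threshold moved by more than 1.5 times in 2 of the alternatives. With the Ttr level as a covariate it was 1629 (976 rose and 653 fell), and with surrogate variables 1888 (1153 and 735); 1493 and 1679 of the 3751 genes passed again in the same direction, and the cause was not tested. Other alternatives gave from 3413 genes with no filter to 4151 with DESeq2, and leaving out 1 control library gave from 3163 to 4165. The difference between the LPS effects called 0 genes in every alternative except 1: 7 without unstimulated replicate 1. Of 155 named genes that passed, none changed sign, 154 passed with any 1 control library left out (Ttr was the exception) and 138 in all other alternatives. Of those that did not pass, the log2 fold change changed sign with the Ttr level for Apoe (-0.137), Slc17a7 (0.043), Slc1a2 (0.110) and Tlr4 (-0.215), with surrogate variables for Apoe (-0.083), Irf3 (0.013), Ptgds (-0.069), Slc17a7 (0.043) and Tlr4 (-0.074), and with 1 library left out for Fos (-0.282 to 0.088) and Tlr4 (-0.014 to 0.243). Mavs passed with the Ttr level (-0.359) and with surrogate variables (-0.311). No paired analysis was possible because the labels give each animal its own number and the replicate numbers follow accession order. Low counts limit the genes near 10 counts, where a rise from no reads has only a lower bound.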
